A study of Mus musculus with 12 samples.

Results

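The loss of the metabotropic glutamate receptor mGluR5 was examined in the striatum of mice that carry a Huntington's disease allele. The comparison set the 3 arrays of HdhQ111/Q111/mGluR5-/- mice against the 3 arrays of HdhQ111/Q111/mGluR5+/+ mice, chosen by their genotype labels, which is 6 of the 12 arrays of the series. The other 6 arrays are the same receptor comparison with the control allele, 3 of HdhQ20/Q20/mGluR5+/+ and 3 of HdhQ20/Q20 and mGluR5-/- mice. All 4 groups are homozygous for a knock-in Hdh allele, which the labels write as Q20 or Q111, so no group carries an unmodified Hdh gene. All mice were males of 90 days on a background mixed from 129, CD-1, C57BL/6 and FV. Levels are log2 array signals of total RNA from dissected striatum. For each of 19938 genes the brightest probe set, by its average across the series, stood for the gene, and 16721 genes above a low-signal limit were tested.

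mGluR5, encoded by Grm5, is a group I metabotropic glutamate receptor. It couples through Gq proteins to phospholipase C, which releases calcium from internal stores and activates protein kinase C, and Homer proteins tether it at the edge of the postsynaptic density. Striatal projection neurons, the GABAergic output cells of the striatum, carry much of it and are the neurons lost most severely in Huntington's disease. That disease is caused by an expanded CAG repeat in the huntingtin gene, and the Q111 allele carries such an expansion into the mouse gene. The comparison answers which striatal transcripts differ when the receptor is missing in such animals.

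With mGluR5 absent, 46 of the 16721 genes (0.275%) differed in the Q111 striatum at a limma adjusted p below 0.05, of which 19 (0.114%) were higher and 27 (0.161%) lower. The astrocyte-secreted protease inhibitor Serpina3n rose 5.46-fold and the ciliary motor gene Dnah6 rose 5.09-fold. The ciliary gene Cfap54 fell 3.56-fold, the transporter gene Slc6a16 3.49-fold, the securin gene Pttg1 3.21-fold and the vascular receptor gene Acvrl1 2.22-fold. No gene of the lists of group I mGluR signalling or of ionotropic glutamate receptor subunits passed the test, and of 43 striatal projection neuron genes 1, Eya1, did. Sizes over the 46 ran from 1.39-fold to 6.05-fold, and 39 were at least 1.5-fold.

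The knockout label was read first in every array. Grm5 (Entrez gene 108071, chromosome 7) had log2 signals of 11.96, 12.01 and 11.85 in the Q111 arrays with the receptor and of 11.14, 11.09 and 10.98 in the knockout arrays. The groups did not overlap, and the level fell by 0.87 ± 0.09 (log2, standard error of limma, adjusted p = 0.00017), which is 1.83-fold. In the Q20 arrays the signals were 11.95, 12.08 and 11.97 with the receptor and 11.06, 10.93 and 11.17 without it. The fall there was 0.94, and the difference between both falls was 0.07 (adjusted p = 1). Which exons the probe set covers relative to the deleted part was not analysed here, so the fold gives no measure of how much receptor was left.

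Array-wide signal was close in both Q111 groups. Array medians lay between 7.09 and 7.16 in the Q111 arrays, and the interquartile range of an array was 2.73 ± 0.19 (SD, n = 3) with the receptor and 2.74 ± 0.07 (SD, n = 3) without it. Striatal identity was present in both groups: mean signals of Penk (proenkephalin) were 12.84 and 12.96 with and without mGluR5, those of the dopamine receptor gene Drd2 were 12.05 and 12.07, and those of Drd1 were 10.93 and 11.02. Whether the arrays within a group are from different mice is not in the labels, so a p-value here measures only how far these samples spread, which may be technical. In bulk tissue, fewer cells of a type and less RNA per cell cannot be told apart. Alleles of the mixed background that differ between groups cannot be told apart from the receptor loss either.

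The 250 bases before the annotated start are printed for Serpina3n and Dnah6, the 2 largest named rises, and for Slc6a16 and Pttg1, which are among the largest falls, from RefSeq's promoter table of build GRCm38.p6, so that the region in front of the strongest movers can be read beside their values. They run 5′ to 3′ on the gene's strand. Capitals mark a TGACGTCA match, the palindromic cAMP response element, and no capitals mean none of 3 searched motifs was in that window.
Serpina3n: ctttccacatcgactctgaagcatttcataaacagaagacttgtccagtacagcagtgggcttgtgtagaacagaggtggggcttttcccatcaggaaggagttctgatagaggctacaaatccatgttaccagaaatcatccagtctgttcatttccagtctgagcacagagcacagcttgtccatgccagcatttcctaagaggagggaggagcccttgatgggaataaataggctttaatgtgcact
Dnah6: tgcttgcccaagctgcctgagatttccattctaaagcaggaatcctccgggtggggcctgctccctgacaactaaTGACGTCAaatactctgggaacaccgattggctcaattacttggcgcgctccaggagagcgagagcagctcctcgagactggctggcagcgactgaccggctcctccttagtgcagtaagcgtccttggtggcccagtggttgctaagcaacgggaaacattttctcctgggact
Slc6a16: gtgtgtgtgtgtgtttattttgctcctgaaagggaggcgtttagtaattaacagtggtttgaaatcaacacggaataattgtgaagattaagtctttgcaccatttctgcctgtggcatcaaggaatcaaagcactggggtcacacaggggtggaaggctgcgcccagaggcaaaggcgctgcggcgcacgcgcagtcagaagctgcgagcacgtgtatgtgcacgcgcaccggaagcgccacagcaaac
Pttg1: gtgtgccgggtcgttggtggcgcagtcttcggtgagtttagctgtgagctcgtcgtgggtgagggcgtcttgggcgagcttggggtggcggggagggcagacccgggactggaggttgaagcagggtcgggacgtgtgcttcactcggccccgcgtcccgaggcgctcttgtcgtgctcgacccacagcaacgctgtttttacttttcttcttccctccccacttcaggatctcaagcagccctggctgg
The windows are chr12:104406458-104406707 on the plus strand for Serpina3n, chr6:73221632-73221881 on the minus strand for Dnah6, chr7:45240503-45240752 on the plus strand for Slc6a16 and chr11:43425982-43426231 on the minus strand for Pttg1. Serpina3n had 1 CpG and 46.4% GC there, against 20 CpG and 63.6% GC in Pttg1, 14 and 52.4% in Slc6a16 and 11 and 56% in Dnah6. The medians over all windows were 6 CpG and 52.4% GC. The motifs TATAAA, TTCNNNGAA (the STAT core) and TGACGTCA were searched on both strands and occur in 12.4%, 7.02% and 1.55% of the 32851 windows. Of the 32 called genes with a window, 1 held each motif: H2-Q2 held TATAAA, Masp2 held TTCNNNGAA and Dnah6 held TGACGTCA, 175 bases before its start. These matches describe letters and are not evidence of binding.

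**Figure D1:**
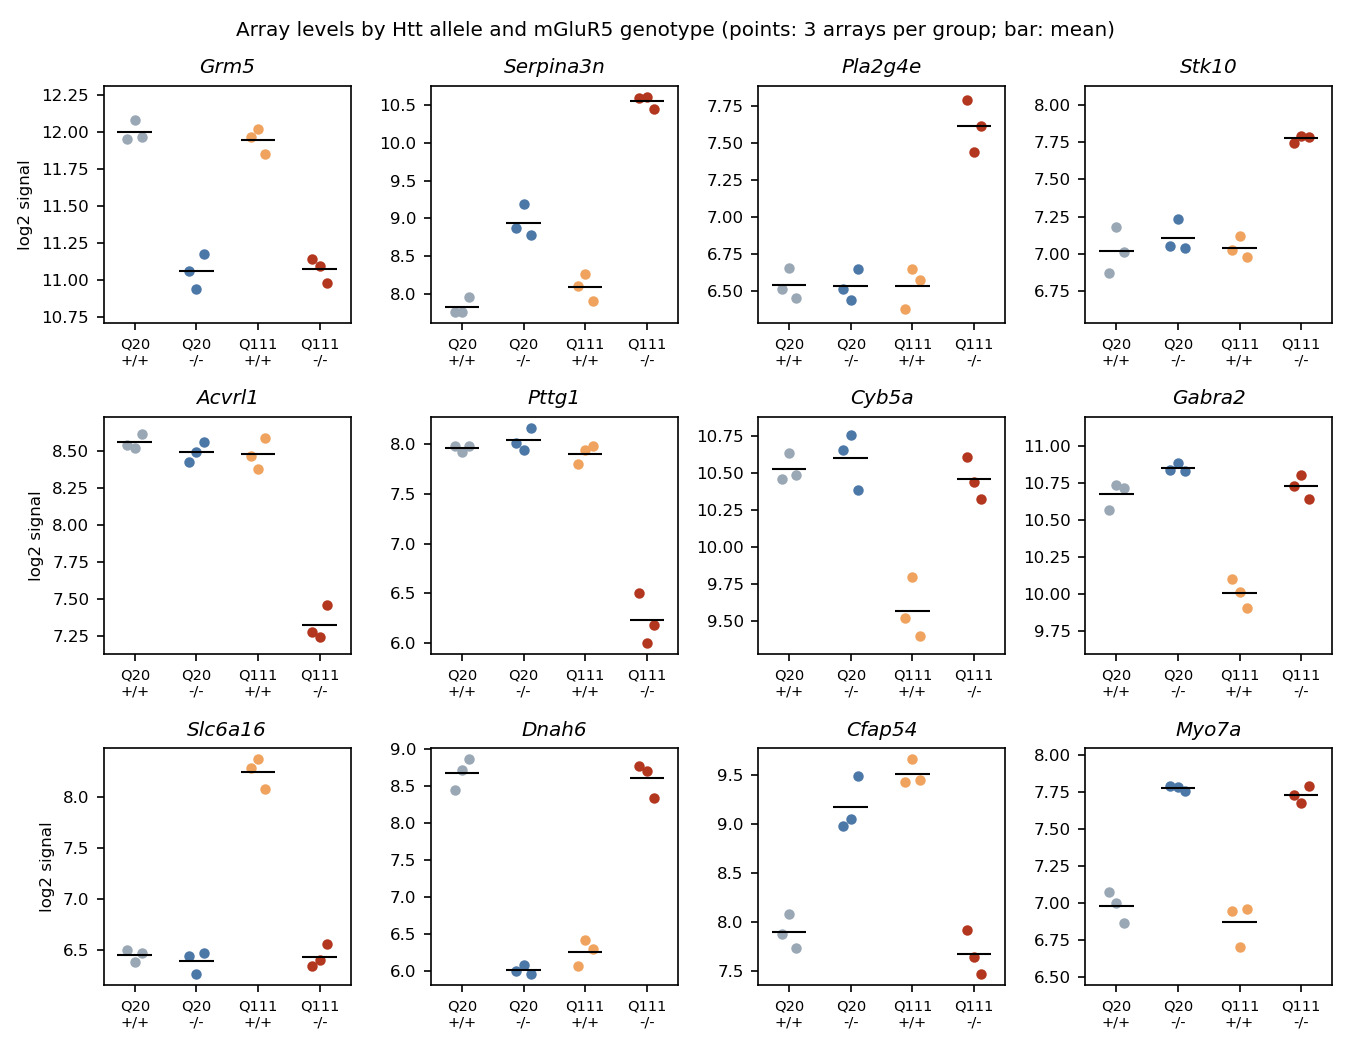
Log2 RMA signal (y axis) of 12 genes in each array, by the 4 groups (x axis), with points for arrays and a bar for the mean of 3. Serpina3n is highest in the Q111 knockout arrays (10.45 to 10.61), Pttg1 and Acvrl1 are lowest there, and Slc6a16 stands apart in the Q111 arrays with mGluR5 (8.08 to 8.37).

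The called genes are described by what each is known to do. Apart from the gene lists named with a count of members tested, this order was made after the genes were called and says nothing about groups of genes. Serpina3n (Entrez gene 20716, chromosome 12), a serine protease inhibitor secreted by reactive astrocytes, had signals of 8.11, 8.27 and 7.91 with mGluR5 and of 10.58, 10.61 and 10.45 without it. All 3 knockout arrays were above all other arrays of the series, and the rise was 2.45 ± 0.12 (log2, adjusted p = 5.01e-08). In the Q20 arrays it rose by 1.11 as well, from 7.76 to 7.97 up to 8.78 to 9.18. The difference between both rises was 1.34 ± 0.17 (adjusted p = 0.00153). Of 31 reactive astrocyte genes tested, Serpina3n was the only one called in Q111, the median change was 0.031 against 0.006 over all genes, and the intermediate filament gene Gfap differed by 0.04 ± 0.14.

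Acvrl1 (Entrez gene 11482), also called ALK1, is a BMP and TGF-beta type I receptor of endothelial cells. Its signals were 8.47, 8.38 and 8.59 with mGluR5 and 7.28, 7.24 and 7.46 without, and no other array of the series was below 8.38. It fell by 1.15 ± 0.09 (adjusted p = 5.48e-06), whereas the change in Q20 was -0.07. The difference between the alleles was -1.08 ± 0.13 (adjusted p = 0.00114). Of 24 endothelial and mural markers tested Acvrl1 was the only one called, and the median of that list was -0.019.

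Matn2 (matrilin 2, a filamentous matrix adaptor) rose by 0.53 ± 0.09, from 6.75 to 6.87 up to 7.32 to 7.37. Lower without mGluR5 were Mxra8 (an adhesion protein and alphavirus receptor, -0.69), Clmp (an adhesion molecule, -0.73), Abi3bp (a matrix protein, -0.82), Cntn4 (contactin 4, a neuronal adhesion molecule, -0.65) and Impg1 (a proteoglycan of the photoreceptor matrix, -1.12). Crispld1, which encodes a secreted protein, fell by 0.60. For Impg1 the knockout mean lay under the low-signal limit, so its fall has no exact size. For Abi3bp and Mxra8 the Q111 arrays with the receptor were above all other 9 arrays, while for Clmp, Cntn4, Impg1 and Crispld1 the knockout arrays were below all of them.

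H2-Q2, an MHC class I gene, was higher by 0.59 ± 0.11 (adjusted p = 0.037), with signals of 6.77, 6.28 and 6.61 against 7.11, 7.14 and 7.18. The Q20 arrays lay at 7.08 to 7.34, so the Q111 arrays with mGluR5 were the low ones. Lower were Masp2 (a protease of the lectin complement pathway, -0.53), Aoah (a lipase that inactivates bacterial lipopolysaccharide, -0.91) and Fv1 (a retrovirus restriction factor, -0.96). Fv1 stood at 8.56 to 8.68 in the Q111 arrays with the receptor and at 7.44 to 7.86 in the other 9. The Q111 knockout mean of Aoah and both its Q20 means lay under the low-signal limit. Of 41 interferon and MHC class I genes H2-Q2 alone was called, with a median of 0.061.

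At the synapse, Gabra2, which encodes the alpha 2 subunit of the GABA-A receptor, had signals of 10.10, 10.01 and 9.91 with mGluR5 and of 10.73, 10.80 and 10.64 without it. The rise was 0.72 ± 0.09 (adjusted p = 0.000778). The Q20 arrays lay at 10.57 to 10.88, so the knockout arrays lay within the range of the control allele, and the Q111 arrays with the receptor stood below all others. No further member of the 14 GABA-A subunits tested was called, and the list's median was -0.023. Insyn2b, of the inhibitory synaptic factor family, fell by 0.80 ± 0.11, from 7.27 to 7.43 down to 6.30 to 6.72. Its Q20 arrays lay between these groups, none above 7.25.

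Pla2g4e (Entrez gene 329502), a cytosolic phospholipase A2 family member that makes N-acyl phosphatidylethanolamines, had signals of 6.38, 6.65 and 6.58 with mGluR5 and 7.79, 7.44 and 7.62 without it. The 9 other arrays of the series lay at 6.38 to 6.66, so its rise of 1.08 ± 0.11 (adjusted p = 0.000104) was seen in the Q111 knockout arrays. The difference from Q20 was 1.09 ± 0.16 (adjusted p = 0.00445). Of 54 eicosanoid and phospholipase genes it was the one called, with a median of 0.050. Lta4h (leukotriene A4 hydrolase) of the same list had a change of 0.81 ± 0.18 that did not pass (adjusted p = 0.0978).

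Trappc2l (a subunit of TRAPP vesicle tethering complexes) rose by 0.92 ± 0.11, and its 3 knockout arrays, at 10.24 to 10.34, were above all others, which lay at 9.26 to 9.77. Entpd4, a Golgi nucleoside diphosphatase, rose by 0.57. Cyb5a, the electron carrier cytochrome b5, was higher by 0.89 ± 0.12. Its signals were 9.52, 9.80 and 9.40 with mGluR5 and 10.61, 10.44 and 10.32 without, against 10.39 to 10.76 in Q20. Here again the Q111 arrays with the receptor stood apart. Cyb5r4, a cytochrome b5 reductase, moved the other way and fell by 0.63 ± 0.12. Its second probe set, with a mean signal of 9.236 against 9.262 for the one used, differed by only -0.32 ± 0.11.

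Also lower without mGluR5 were Mrpl20 (a mitochondrial ribosome protein, -0.77), Abhd10 (a mitochondrial depalmitoylase, -0.65) and Ublcp1 (a nuclear phosphatase that acts on the proteasome, -0.80). Abhd10 was 8.40 to 8.80 with mGluR5 and 7.78 to 8.05 without it in Q111, and the reverse in Q20, at 7.84 to 8.07 and 8.61 to 8.71. No member of the 71 oxidative phosphorylation subunits passed the limma test, with 6 at an unadjusted p below 0.05, against 4.36% of all genes. Of the 71 subunits, 59 had values above 0, against 52.6% of all genes. Their median was 0.086 in Q111 and 0.117 in Q20, against 0.006 and 0.02 over all genes. The mean level of the subunits was 9.907 to 10.15 over the Q111 arrays with mGluR5. Over the knockout arrays it was 10.085 to 10.121, within that range. The largest by p were Atp5g1 (0.38 ± 0.10, adjusted p = 0.184) and Ndufc2 (0.32 ± 0.09, adjusted p = 0.358).

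Dnah6 (Entrez gene 330355, chromosome 6) encodes an axonemal dynein heavy chain. In Q111 its signals were 6.07, 6.42 and 6.30 with mGluR5 and 8.78, 8.70 and 8.35 without it. In Q20 they were 8.45, 8.72 and 8.87 with the receptor and 6.00, 6.09 and 5.96 without. The rise of 2.35 ± 0.13 (adjusted p = 1.31e-07) in Q111 stood beside Q20, where the level fell by 2.66, and the difference was 5.01 ± 0.19 (adjusted p = 1.04e-09). The 12 arrays fell on a high and a low level in crossed groups, and none lay between 6.42 and 8.35. The 2 other probe sets of the gene gave 2.53 ± 0.15 and 2.16 ± 0.11.

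Cfap54 (Entrez gene 380654), a component of the central apparatus of motile cilia, showed the mirror image. It was 9.42, 9.66 and 9.45 with mGluR5 and 7.92, 7.64 and 7.47 without it in Q111, a fall of 1.83 ± 0.15 (adjusted p = 5.48e-06). In Q20 it rose by 1.27, from 7.74 to 8.08 up to 8.98 to 9.48. The difference was -3.1 ± 0.21 (adjusted p = 1.65e-06), and a second probe set gave a Q111 change of -1.20 ± 0.14. Of 61 motile cilium genes tested these were the 2 called, in opposite directions, and the list's median was 0.020. Markers of ependymal cells, the ciliated lining of the ventricle, had none called by limma of 10, 0 at an unadjusted p below 0.05, and a median of -0.042.

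Myo7a, an unconventional myosin of sensory hair cells, rose by 0.86 ± 0.09 in Q111 and by 0.80 in Q20. Its signals were 6.70 to 6.96 with mGluR5 and 7.67 to 7.79 without in Q111, and 6.86 to 7.07 and 7.76 to 7.79 in Q20. This gene lies 38 tested genes from Grm5 on chromosome 7. Mylk, a myosin light chain kinase, rose by 0.47, which is 1.39-fold and with Ppil1 the smallest size called. Stk10, a serine/threonine kinase of lymphocytes, rose by 0.74 ± 0.10 with knockout arrays at 7.75 to 7.79 against 6.87 to 7.23 in all others.

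Pttg1 (Entrez gene 30939), the securin that holds separase inactive until anaphase, had signals of 7.80, 7.94 and 7.98 with mGluR5 and of 6.50, 5.99 and 6.18 without. It fell by 1.68 ± 0.12 (adjusted p = 1.66e-06), and the difference from Q20 was -1.76 ± 0.17. The Q20 arrays lay at 7.93 to 8.17 in both receptor groups, so the Q111 knockout arrays stood below all others. Mcmdc2, a meiotic recombination gene, fell by 0.83, with a knockout mean under the low-signal limit. Ppil1, a spliceosomal isomerase, rose by 0.47, and Eya1, a transcription coactivator and phosphatase, rose by 0.58 ± 0.11. Eya1 was 8.21 to 8.48 with mGluR5 and 8.79 to 8.99 without, against 8.51 to 8.82 in Q20.

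Among transporters, Slc6a16 (Entrez gene 381884), an orphan member of the neurotransmitter transporter family, was 8.28, 8.37 and 8.08 with mGluR5 and 6.35, 6.40 and 6.57 without it. The Q20 arrays lay at 6.27 to 6.51, so the 3 Q111 arrays with the receptor were the ones that stood apart. It fell by 1.80 ± 0.10 (adjusted p = 1.31e-07). Slc38a11, a putative amino acid transporter, fell by 0.67 in Q111 and 0.63 in Q20, with the knockout means of both alleles under the limit. The other named genes were Abhd14a (-1.01), AI506816 (-2.59), Ppdpf (-0.75), Tmem44 (-0.60), Egfem1 (0.55) and Lrrc10b (0.81). For AI506816 all group means except that of the Q111 arrays with mGluR5 lay under the limit, so its fall has no exact size. The 5 called genes outside the naming rule were predicted, vomeronasal and small nucleolar RNA genes. Of these, C330024D21Rik, named after its values were seen, had the largest rise of all, 6.05-fold, with 6.25, 5.40 and 6.28 against 8.53, 8.68 and 8.51.

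**Figure D2:**
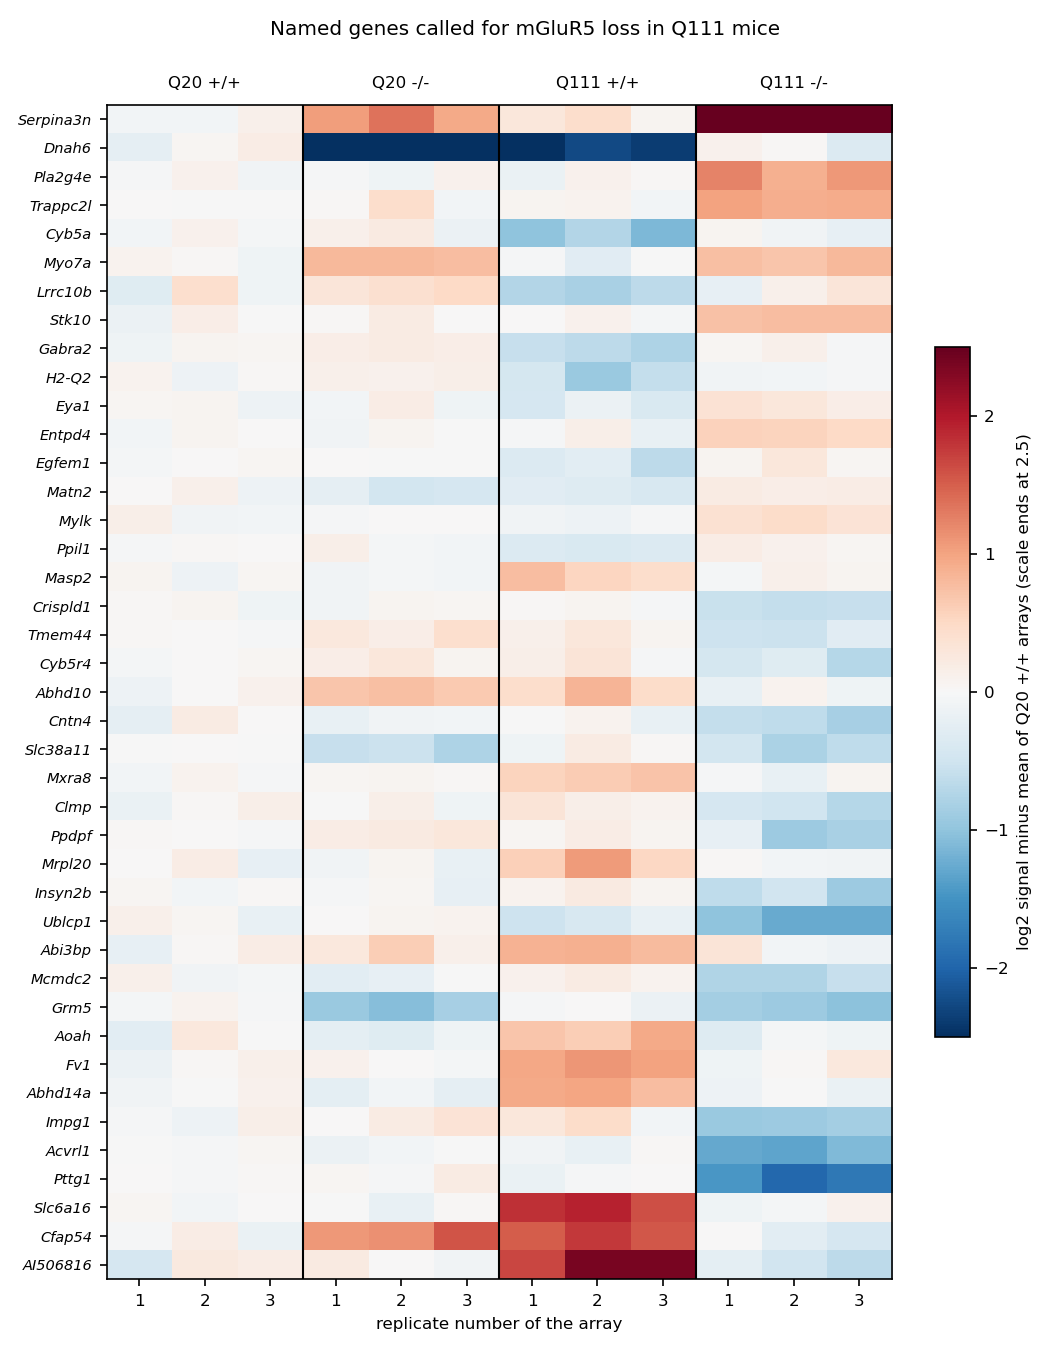
Log2 signal of the 41 named called genes (y axis) in the 12 arrays by group (x axis), as the difference from the mean of the Q20 arrays with mGluR5, coloured from -2.5 to 2.5. Changes against the Q20 baseline sit in the Q111 knockout columns for some genes, such as Serpina3n and Pttg1, and in the Q111 columns with mGluR5 for others, such as Slc6a16 and Fv1.

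The called genes fell into patterns over the 4 groups. All 46 had 3 knockout arrays that did not overlap the 3 arrays with mGluR5, as did 7.46% of all genes tested (3.77% with higher and 3.69% with lower knockout arrays). In 23 of the 46 the knockout arrays lay outside the range of the other 9 arrays, against 1.39% of all genes. In 19 the Q111 arrays with mGluR5 lay outside the range of the other 9, against 1.11% of all genes. Both applied to 3 genes, 20 had the first pattern alone, 16 the second alone and 7 neither. The comparison was used to call these genes, so the shares describe them and give no separate test. For AI506816 and Aoah, both of the second pattern alone, only the mean of the Q111 arrays with mGluR5 lay above the low-signal limit. For the called vomeronasal gene, of the first pattern alone, only the Q111 knockout mean did. All of these were tested because of the group where they were high. For Gabra2, which had the second pattern alone, all 3 knockout arrays lay within the range of the Q20 arrays. For Insyn2b, which had both patterns, all 3 lay below it.

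The comparison with the control allele is direct, since the Q20 and Q111 contrasts share no array. Of the 46 genes, 7 were also called for the receptor loss in Q20, which is 15.2% of the Q111 list and 14% of the 50 genes called in Q20 (0.299% of those tested). Grm5, Myo7a, Serpina3n and Slc38a11 had the same direction, and Dnah6, Cfap54 and Abhd10 the opposite. The test of the difference itself called 73 genes (0.437%), 36 with a more positive change in Q111 (0.215%) and 37 with a more negative one (0.221%). It included 25 of the 46. With 1 array left out the 73 became 34 (without Q20 knockout replicate 1) to 69, and the 50 became 25 (without Q20 replicate 3 with mGluR5) to 97 (without Q111 replicate 2 with mGluR5). Over all genes the 2 changes had a Pearson r of -0.016 and a Spearman rho of 0.015, which describe values across genes that are not independent replicates. Of the 46, 23 had the same sign in Q20, against 51% of all genes.

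Genes called for the difference but not for the Q111 loss numbered 48, of which 28 were called in Q20 and 20 in neither. They included Nt5dc3 (difference 1.62 ± 0.18, with a change of -0.07 in Q111 and -1.69 in Q20), Tnni1 (a slow skeletal muscle troponin I, 1.56 ± 0.28) and Rasgrp3 (a Ras guanine nucleotide exchange factor, 1.21 ± 0.24). With more negative values in Q111 were Tacr3 (the neurokinin 3 receptor, -1.59 ± 0.21), Aldh7a1 (antiquitin, -1.56 ± 0.27), Rpl34 (a ribosomal protein, -1.42 ± 0.25) and Tmem74 (a lysosomal membrane protein linked to autophagy, -1.40 ± 0.22). The Q111 knockout mean of Tmem74 lay under the low-signal limit, so its difference has no exact size. The Q111 groups overlapped for Nt5dc3, Tnni1, Rasgrp3, Aldh7a1 and Rpl34. Some Q111 arrays of a group lay far apart, as for Tnni1 without mGluR5 (7.14, 8.25 and 7.93) and Aldh7a1 with it (9.04, 10.11 and 9.51). Of 22 Pcdhb cluster protocadherins, a family chosen after values were seen, 7 were called for the difference, against 0.437% of all genes. Of these 22, 14 had values above 0 in Q111, against 52.6% of all genes. In Q20, 18 were below 0, where the median over all genes was 0.02.

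**Figure D3:**
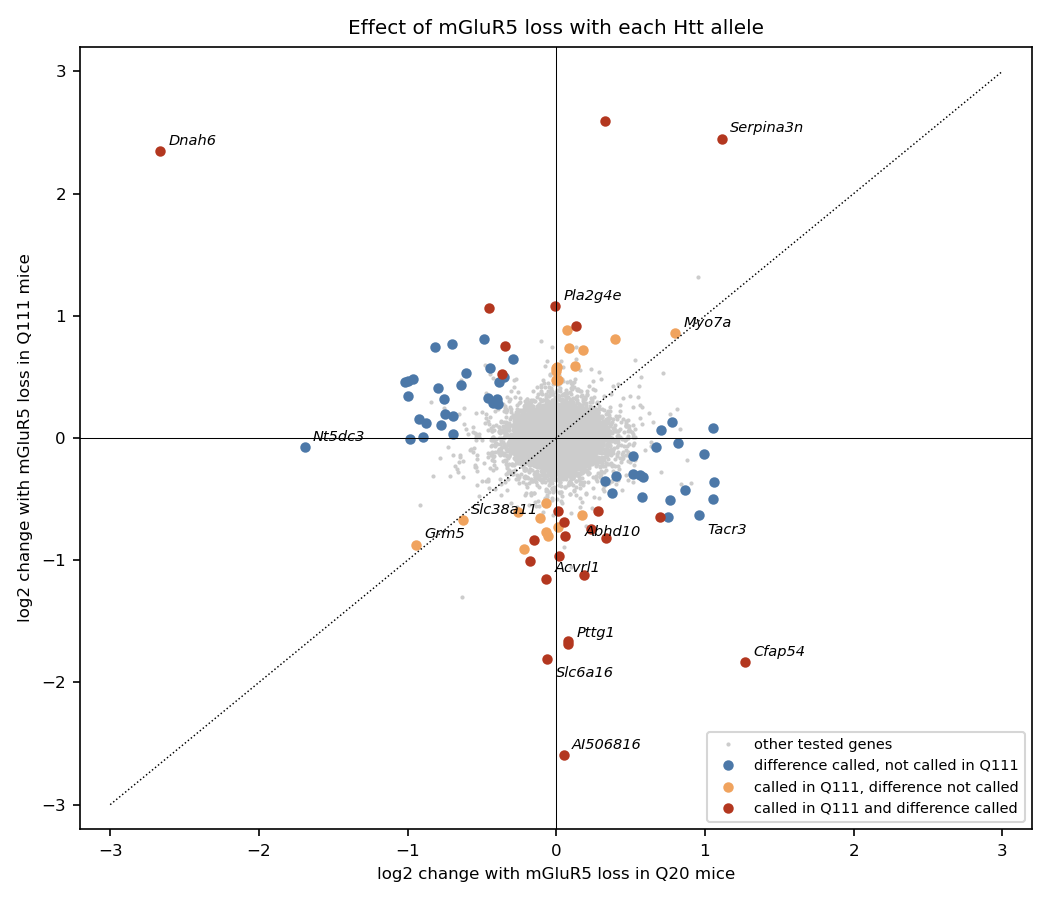
Log2 change with mGluR5 loss in Q20 (x axis) against Q111 (y axis) for all tested genes, with called genes coloured, some of them named, and a dotted line for equal changes. Most genes lie near the origin, Serpina3n and Myo7a are positive on both axes, Grm5 is negative on both, and Dnah6 and Cfap54 lie far out in opposite corners.

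Called genes were often near each other along chromosomes. Another called gene lay within 20 tested genes of 15 of the 46 (32.6%), while a called gene lay that near for 9.17% of all genes with a position. On chromosome 11, Stk10, Insyn2b, Pttg1 and Ublcp1 followed each other at 15, 14 and 7 tested genes. On distal chromosome 4, Fv1, Masp2, Mrpl20 and Mxra8 were called, with Masp2 18 tested genes after Fv1 and Mxra8 2 after Mrpl20. All 4 were higher in the Q111 arrays with mGluR5 than in the other 9 arrays. On chromosome 1, Mcmdc2, Eya1 and Crispld1 followed at 13 and 14 genes, Eya1 higher and the other two lower. Chromosome 16 held 4 called of 528 tested (0.758%). Strain alleles shared by such neighbours and the receptor loss cannot be told apart here.

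**Figure D4:**
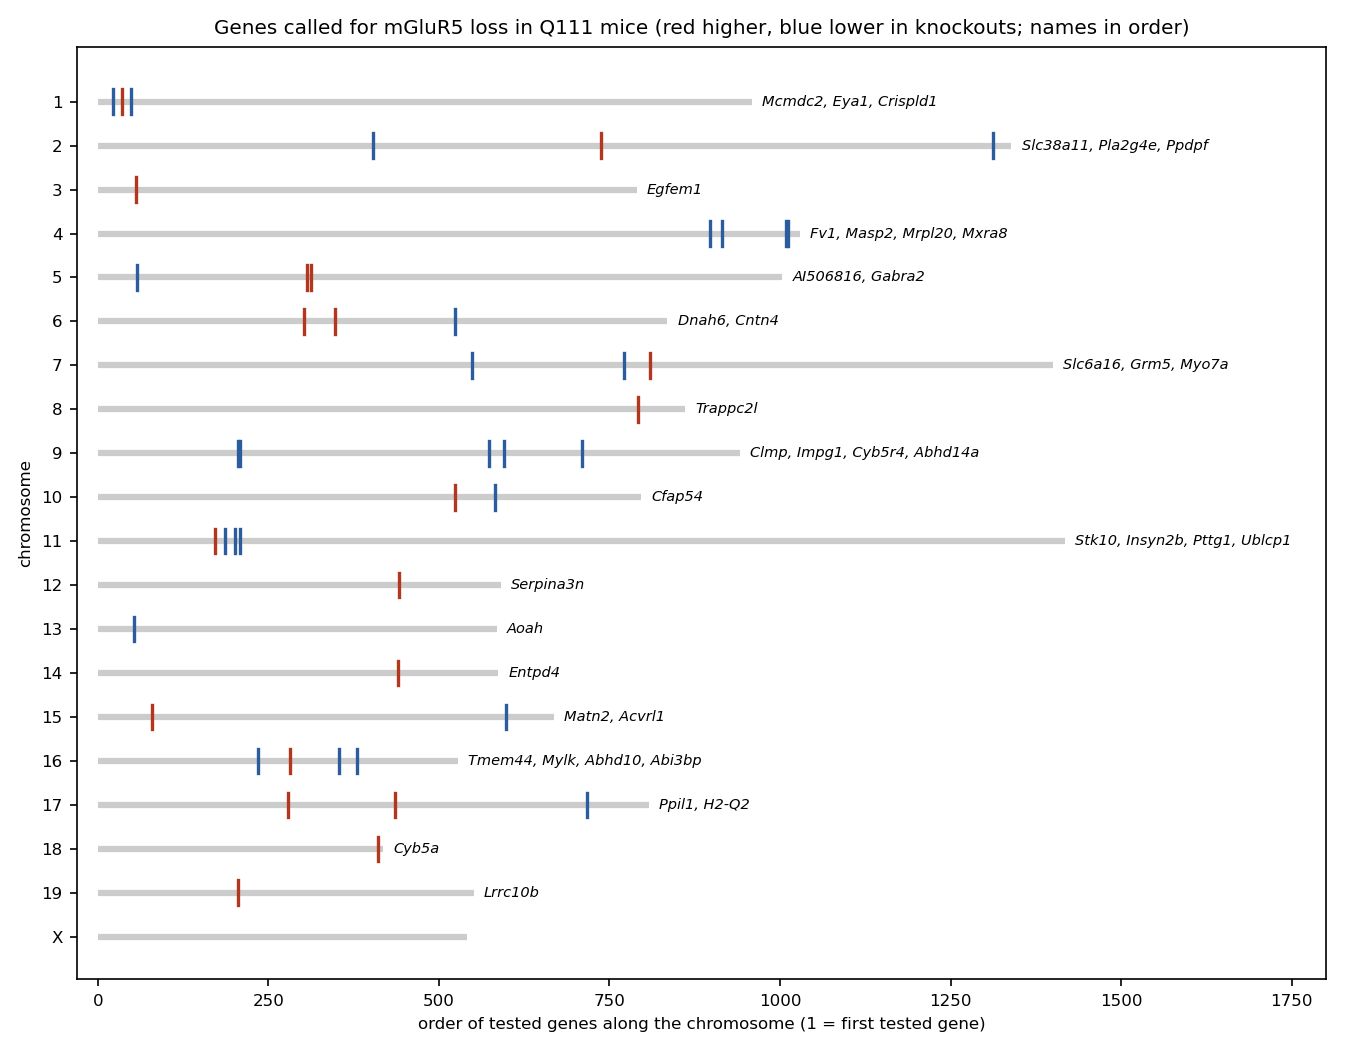
Called genes in the order of tested genes along each chromosome (x axis, gene order; y axis, chromosome), red for higher and blue for lower without mGluR5. The 4 called genes on chromosome 11 follow each other at 15, 14 and 7 tested genes, and chromosome X has none.

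Around Grm5, the 50 tested genes on either side gave 100 neighbours. Of these, Myo7a was the one gene called in Q111 and in Q20. The groups did not overlap for 7 (7%), against 7.46% of all genes, and 61 of the 100 had the same sign in both alleles, against 51% of all genes. Ndufc2, which lies among them, had 0.32 ± 0.09 in Q111 (adjusted p = 0.358) and 0.45 in Q20.

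The receptor's own pathway was then read as a list. Of 45 group I mGluR signalling and scaffold genes tested, limma called none higher or lower, with 4 at an unadjusted p below 0.05, and the median change was -0.003 with 22 above 0. The smallest p belonged to Prkca (protein kinase C alpha, -0.45 ± 0.13, adjusted p = 0.367) and Ptk2b (the calcium-dependent tyrosine kinase Pyk2, 0.25 ± 0.09, adjusted p = 0.728). Of 6 metabotropic glutamate receptors of the other groups tested, none was called and 1 had an unadjusted p below 0.05. It was the presynaptic receptor gene Grm7, at 9.99, 9.99 and 9.87 with mGluR5 and 9.51, 9.54 and 9.44 without. Its change of -0.45 ± 0.09 missed the threshold (adjusted p = 0.0697), although its groups did not overlap. No ionotropic glutamate receptor subunit of 16 was called by limma, 0 had an unadjusted p below 0.05, and the median was -0.033.

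Activity-induced immediate early genes had none called by limma of 26 (2 at an unadjusted p below 0.05), with 16 below 0 and a median of -0.101, the lowest of the 24 lists. Their mean level was 7.85 to 8.187 over the Q111 arrays with mGluR5 and 7.858 to 8.031 over those without, within that range. Among them Egr1, a transcription factor induced by calcium signals, was -0.27 ± 0.10 (adjusted p = 0.691) and Dusp1, a MAP kinase phosphatase, -0.36 ± 0.16. Chaperones and unfolded protein response genes had none of 49 called (5 at an unadjusted p below 0.05), and Calr, the calcium-binding chaperone calreticulin, was -0.35 ± 0.09 (adjusted p = 0.274). Of 29 cholesterol genes and 32 neurotrophin and autophagy genes none was called, 1 and 0 had an unadjusted p below 0.05, and the medians were 0.036 and 0.001. Over all genes the median was 0.006, 52.6% were above 0, and 729 (4.36%) had an unadjusted p below 0.05.

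Cell type markers were read as lists, of which the endothelial and mural list, with Acvrl1 called, had a mean level of 7.64 to 7.86 over the arrays with mGluR5 and of 7.66 to 7.77 over those without. Of 43 striatal projection neuron genes, Eya1 was the one called and the median was 0.010. The list of oligodendrocyte genes had a mean level of 9.53 to 9.75 over the arrays with mGluR5 and of 9.65 to 9.69 over those without, and limma called none of 21 (1 at an unadjusted p below 0.05). Astrocyte genes, none called of 19 (1 at an unadjusted p below 0.05), spanned 9.94 to 10.11 and 9.94 to 10.02. Microglia genes, none called of 19 (3 at an unadjusted p below 0.05), spanned 8.03 to 8.18 and 8.05 to 8.16, and the nearest to the threshold were Siglech (a sialic acid lectin, 0.45 ± 0.09, adjusted p = 0.0655) and Fcrls (an Fc receptor-like protein, -1.06 ± 0.25, adjusted p = 0.134). Choroid plexus genes, a sign of dissection near the ventricle, were below 0 in 9 of 9 with a median of -0.090, none called and 0 at an unadjusted p below 0.05. Their mean level was 6.37 to 6.73 with mGluR5 and 6.35 to 6.47 without, and their part in the results was not tested. Of 17 cortical, 19 thalamic, hypothalamic and septal, 18 interneuron and 4 blood markers none was called, and 0, 2, 2 and 0 had an unadjusted p below 0.05. The hypothalamic peptide genes Hcrt and Pmch did not pass the low-signal limit.

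**Figure D5:**
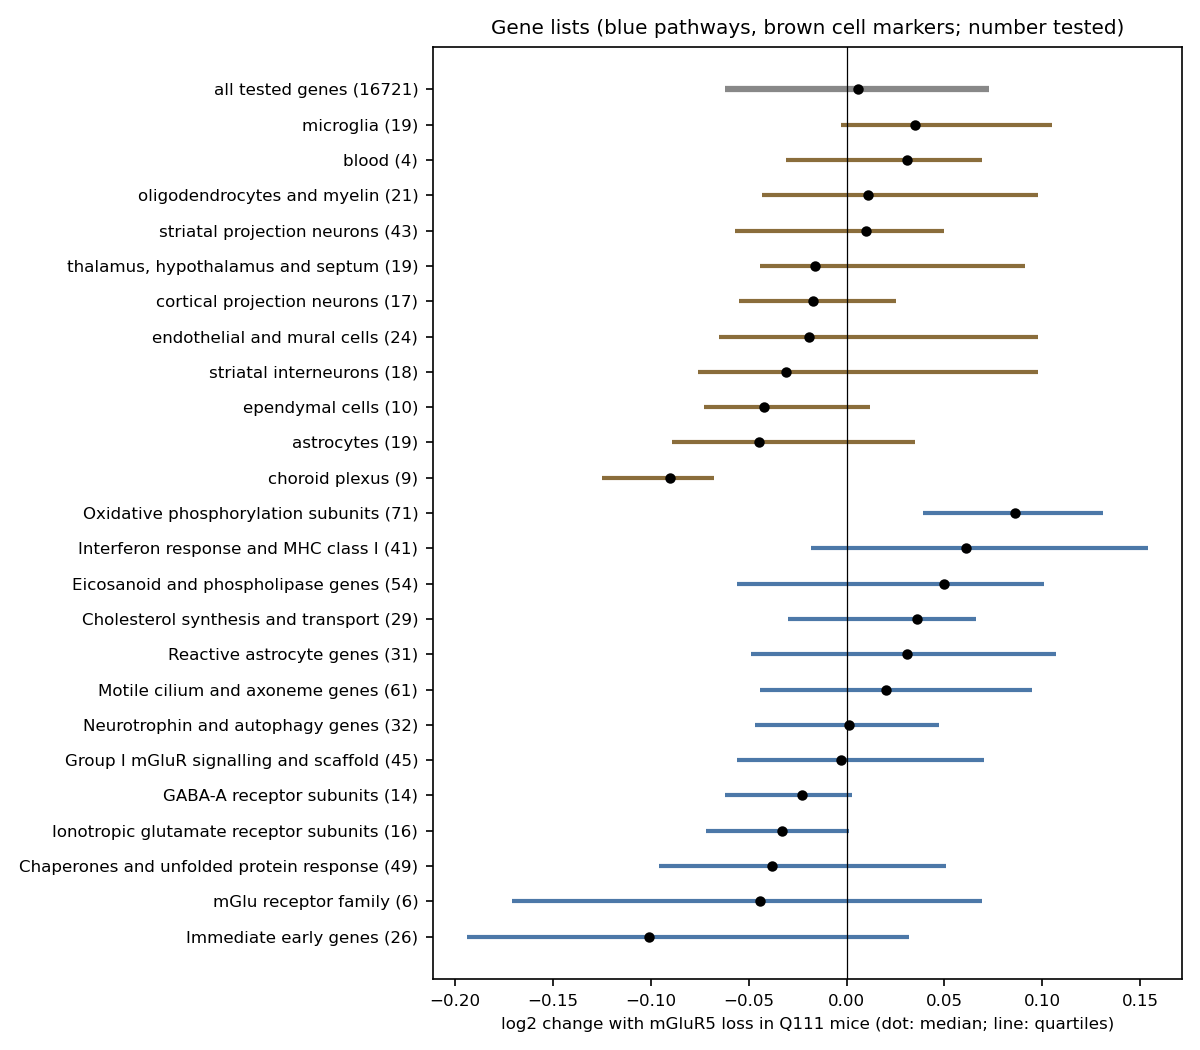
Median log2 change with mGluR5 loss in Q111 (x axis) for the 24 gene lists (y axis), with bars from the lower to the upper quartile and the median of all tested genes marked. Oxidative phosphorylation subunits (0.086) and immediate early genes (-0.101) lie at the 2 ends, and the other medians lie between -0.090 and 0.061.

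The count of 46 depended on single arrays. It ranged from 28 without knockout replicate 2 to 52 without replicate 2 of the arrays with mGluR5. With array weights, whose fit did not converge fully, it was 25. Of the 41 named genes, 23 kept their call whichever array was left out. Of all 26 alternatives, none that tested them ended the calls of 18, among them Grm5, Serpina3n, Dnah6, Cfap54, Pla2g4e, Acvrl1, Pttg1, Slc6a16, Gabra2, Fv1 and Stk10. Leaving out knockout replicate 1, 2 or 3 ended 13, 15 and 16 of the 41 calls, and leaving out replicate 1, 2 or 3 with mGluR5 ended 14, 8 and 10. Leaving out 1 of the Q20 arrays, which share the estimate of spread, ended 2 to 10. The calls of Egfem1 (11), Mylk (10), H2-Q2, Ppdpf and Lrrc10b (9 each) were lost in most of the 12 fits with 1 array left out. Those of Masp2 (8), Eya1, Ppil1 and Cyb5r4 (7 each), Cntn4 (6) and Matn2 (5) were lost in several. Entpd4, Abhd10 and Abi3bp lost theirs in 4 fits, Tmem44 and Mrpl20 in 3, and Clmp and Slc38a11 in 2. No named call changed direction.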

How the data were processed

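Total RNA from dissected striatum was measured on 12 Affymetrix mouse whole-transcript arrays, 3 per group. The authors deposited RMA values on a log2 scale. RMA and Partek are named per the submitters' processing notes with no version, and the series' design text gives Partek Genomics Suite 6.5. RMA equalizes the distributions of probe signals, so a shift shared by most genes would be largely removed. The deposited probe set values were not fully equal in spread, with interquartile ranges of an array from 2.563 to 2.949. All data columns were headed by the identifier of a sample, and the sample titles gave the groups. Of 35556 probe sets, 21789 had 1 gene symbol, 1621 several and 12146 none in the platform annotation. A gene was tested if at least 3 arrays had it over their own 25th percentile (log2 5.69 to 5.94). RefSeq gave gene order, with 91 named sets unmatched. Genome positions of the probe sets themselves, such as those of Cyb5r4 and AI506816, were not checked against their annotated genes.

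limma 3.58.1 in R 4.3.3 fitted 1 mean per group over 12 arrays (8 residual degrees of freedom, prior 6.88). All p-values are two-sided and adjusted by Benjamini-Hochberg over the 16721 genes, and calls use an adjusted p under 0.05. Values after ± beside a change are limma's standard errors. The script was tested on simulated data. Array number limits the precision.

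The genes named are Grm5, called genes other than predicted genes, chemosensory receptors and small RNAs, list members by call or smallest p, and the 12 largest differences between alleles in each direction. The 24 lists, of 749 genes, are described by counts and medians alone. The members and lists were chosen with earlier results of these data known. Replicate numbers were not taken to pair the samples. Alternatives were the arrays entered, the block, array weights, moderation, filters, normalization, probe set choice and each array left out.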

Additional observations from a re-analysis of the deposited data

Results flagged for a closer look

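The change with mGluR5 loss differed between the Q111 and the Q20 allele, by limma's test of the difference at an adjusted p below 0.05, for each gene given here with the difference in log2 units (Q111 change minus Q20 change). Called in both alleles and more positive in Q111 were Dnah6 (5.01) and Serpina3n (1.34). Among genes called in Q111 and not in Q20, more positive values in Q111 belonged to Pla2g4e (1.09), Matn2 (0.89) and Trappc2l (0.79). Among genes called in Q20 and not in Q111, more positive values in Q111 belonged to Nt5dc3 (1.62), Pcdhb6 (1.48), Nlrp5-ps (1.46), Pcdhb3 (1.45) and Trhr (1.34). Called for neither allele alone and more positive in Q111 were Tnni1 (1.56), Pcdhb2 (1.48), Lta4h (1.30), Rasgrp3 (1.21) and Pcdhb11 (1.14). Called in both alleles and more negative in Q111 were Abhd10 (-1.34) and Cfap54 (-3.1). Among genes called in Q111 and not in Q20, more negative values in Q111 belonged to Crispld1 (-0.61), Mcmdc2 (-0.68), Mxra8 (-0.74), Abhd14a (-0.83), Ublcp1 (-0.86), Tmem44 (-0.88), Ppdpf (-0.98), Fv1 (-0.98), Acvrl1 (-1.08), Abi3bp (-1.15), Impg1 (-1.30), Slc6a16 (-1.74), Pttg1 (-1.76) and AI506816 (-2.64). Among genes called in Q20 and not in Q111, more negative values in Q111 belonged to Cpq (-1.28), Timmdc1 (-1.29), Rpl34 (-1.42), Aldh7a1 (-1.56) and Tacr3 (-1.59). Called for neither allele alone and more negative in Q111 was Tmem74 (-1.40). The differences of Trhr, Mcmdc2, Impg1, Tmem74 and AI506816 have no exact size, because at least 1 of the 4 group means lay under the low-signal limit. Groups of 3 arrays are too small for a test of single outlying arrays, and none was run.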

How the results depend on the processing

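The 46 genes called in Q111 became 103 with a replicate block and 25 with array weights, whose fit did not converge fully. They became 23 without moderation and 150 with the interquartile range of each array as a covariate. All 46 were among the 103 and the 150. Leaving out 1 array gave 28 (without knockout replicate 2) to 52 (without replicate 2 with mGluR5). The 73 genes called for the difference became 19 without moderation, 165 by the stated criteria (unadjusted p below 0.05 and 1.5-fold) and 153 with the interquartile range covariate, and 34 (without Q20 knockout replicate 1) to 69 (without Q111 replicate 2 with mGluR5) with 1 array left out. It also fell by more than 1.5 times without Q111 replicate 1 with mGluR5 (42), any Q111 knockout replicate (46, 47 and 45) or Q20 replicate 2 (44) or 3 (40) with mGluR5. The 50 genes called in Q20 became 129 with the replicate block, 2120 with array weights, whose fit did not converge fully, 19 without moderation, 84 with an intensity trend, 76 after quantile normalization and 213 with the covariate, and 25 (without Q20 replicate 3 with mGluR5) to 97 (without Q111 replicate 2 with mGluR5) with 1 array left out, with 30 without Q20 replicate 2 with mGluR5 and 26 and 31 without Q20 knockout replicates 1 and 2. The cause of these moves was not tested. The other settings left the Q111 count between 33 and 66. Grm5 fell by 0.83 to 0.92 with 1 array left out. Only the up to 3 members with the smallest p of each list without a call were refitted here, and 6 of them changed sign when 1 Q111 array was left out: over the 12 such fits S100a9 ranged from -0.3496 to 0.0364, Fech from -0.0077 to 0.2481, Slc4a1 from -0.0613 to 0.1862, Folr1 from -0.2186 to 0.0317, Kcnj13 from -0.3486 to 0.0754 and Rarres2 from -0.1366 to 0.0004. The block is given only as an alternative, since deviations of same-numbered Q111 arrays correlated at -0.036, 0.494 and 0.445 and not every array correlated best with its own number.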
